A study of Mus musculus with 45 samples.

Results

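The genes described here encode 10 proteins that store maternal mRNAs in the oocyte or switch their translation on: Cpeb1, Dazl, Zar1, Zar1l, Lsm14b, Patl2, Ddx6, Ybx2, Pabpc1l and Pabpc1. They were taken by gene symbol, and all 10 were present among the 26214 genes of the deposited expression table. The transcripts were measured in fully grown oocytes (FGOs) and in late 2-cell (2C) embryos of mice. Control FGOs carried the allele H3f3b K36M-flox/+ alone, while K36M FGOs also carried Gdf9-Cre, a recombinase driven by an oocyte promoter. Recombination in these oocytes releases a histone H3.3 in which lysine 36 is replaced by methionine, a mutant histone that interferes with methylation of this residue, and the study asked how far the loss of H3K36me2 alters transcription. The mice were C57BL/6 / 129 hybrids, FGOs were taken at 3 to 4 weeks of age, and each FGO library pooled 5 cells. Each 2C library held 1 embryo, obtained from superovulated females by in vitro fertilization with JF-1 sperm and harvested 31 to 32 h later. Control 2C embryos came from control oocytes and K36M 2C embryos from K36M oocytes, and the paternal strain was the same. The mothers were heterozygous, so embryos of either group could inherit the altered allele or the normal one, and which one each embryo carried was not given in the sources used here. There were 3 control FGO, 3 K36M FGO, 7 control 2C and 8 K36M 2C libraries, with control 2C replicate 4 left out because the submitters set it aside for a technical problem.

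A growing oocyte makes far more mRNA than it uses, keeps much of it silent with a short poly(A) tail, and then translates it after transcription has stopped. CPEB1 binds a U-rich cytoplasmic polyadenylation element (CPE) in the 3′ untranslated region, first holding the mRNA silent and later recruiting the enzymes that lengthen its tail. YBX2, LSM14B, PATL2, DDX6, ZAR1 and ZAR1L belong to stored or repressed mRNA-protein particles, and the lengthened tail is read by PABPC1L in the oocyte and by PABPC1 in somatic cells.

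The CPE through which CPEB1 acts was searched in the 3′ untranslated regions of the genes themselves, as TTTTAT or TTTTAAT on the transcribed strand. In the RefSeq Select transcripts of GRCm38.p6 (mm10), 52.3% of 19494 transcripts held at least 1 such element and 17.3% held one within the last 100 bases, close to the cleavage site. Dazl held 6 elements, Ddx6 7, Cpeb1 4, Lsm14b 2, and Ybx2 and Pabpc1 1 each, whereas Pabpc1l, Patl2, Zar1 and Zar1l held 0. Ybx2 alone of the 10 had its element within the last 100 bases, 60 bases from the end of the transcript at chr11:69941542-69941571 (+ strand). No poly(A) signal AATAAA or ATTAAA lay within the last 60 bases of Ybx2 or Zar1l, whereas the other genes had one 20 to 25 bases from the end. Whether the Ybx2 element acts was not tested. The Ybx2 stretch is printed with the element in capitals because Ybx2, after Pabpc1, also had the highest mean level of the group in 2C embryos.
Ybx2 CPE: caTTTTATgaactgtcatgtgccacctgag

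Promoter windows of 300 bases, from 250 before to 50 after the RefSeq start, were given for 8 of the 10 genes (9 windows, with 2 for Ybx2). Those of the related genes Zar1 (chr5:72581035-72581334, - strand) and Zar1l (chr5:150518110-150518409, - strand) are printed because both transcripts were among the most abundant of the group in FGOs and both fell in embryos. Capitals mark matches to the E-box CANNTG, which reads the same on both strands, and to the elements TAATTA or TAATTG of the oocyte factor NOBOX on either strand.
Zar1 promoter: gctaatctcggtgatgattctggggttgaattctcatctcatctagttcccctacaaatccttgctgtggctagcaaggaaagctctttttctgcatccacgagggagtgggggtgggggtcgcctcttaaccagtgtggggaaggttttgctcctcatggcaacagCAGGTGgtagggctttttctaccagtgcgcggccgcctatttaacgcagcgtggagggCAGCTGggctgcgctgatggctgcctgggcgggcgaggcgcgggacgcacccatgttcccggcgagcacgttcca
Zar1l promoter: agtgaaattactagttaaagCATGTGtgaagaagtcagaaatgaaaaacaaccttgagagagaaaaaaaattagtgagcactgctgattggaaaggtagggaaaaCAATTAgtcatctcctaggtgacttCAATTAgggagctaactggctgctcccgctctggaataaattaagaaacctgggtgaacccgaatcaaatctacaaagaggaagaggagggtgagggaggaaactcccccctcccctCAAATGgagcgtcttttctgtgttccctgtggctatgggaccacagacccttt
Each of these windows held 2 E-boxes, and only the Zar1l window held NOBOX elements, 2 in number, written as CAATTA on the printed strand. An E-box was present in 8 of the 9 windows of the group against 72.3% of 32851 windows genome-wide, and a NOBOX element in 1 of 9 against 12.4%, shares near the background for so few windows. The windows also differed in CpG content, with 17 CpG dinucleotides in Zar1, 3 in Zar1l, 33 in Cpeb1 and 40 in Lsm14b, beside a genome-wide median of 7. These matches describe the letters of the windows and no binding was measured.

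Values are TPM, in which read counts are divided by gene length and scaled so that each library sums to 1000000, which allows levels of different genes to be compared. TPM keeps no depth, so how many reads a value rests on is not known. Being a share of the RNA in a library, it holds no absolute amounts, and fewer cells and less RNA per cell cannot be told apart from it. The FGO libraries listed 16707 to 18559 genes above 0 and the single 2C embryos 10894 to 17329. Replicates correlated at 0.98 in FGOs and at 0.75 to 0.90 in 2C embryos (Pearson's r over genes). The sum of 7 oocyte markers ranged from 13114 to 13249 TPM in control FGOs, from 11639 to 12684 TPM in K36M FGOs and from 405 to 1136 TPM in 2C embryos, that of 8 two-cell zygotic markers from 34.5 to 73.9 TPM and from 270.4 to 2440.0 TPM. All 7 oocyte and all 9 granulosa cell markers averaged at least 1 TPM in both FGO groups, the latter summing to 125 to 144 TPM in control FGOs, 135 to 206 TPM in K36M FGOs and 77.8 to 424 TPM in 2C embryos. Of these 9, Nr5a2 had the highest mean in each group, at 71.0 and 118 TPM in control and K36M FGOs. In control and K36M 2C embryos its mean was 174 and 201 TPM, and 5 and 7 of the 9 averaged at least 1 TPM there. Stroma and theca markers summed to at most 9.18 TPM in FGOs and 57.4 TPM in 2C embryos. Blood and immune markers summed to at most 3.21 TPM in FGOs, where 4 of 7 were at 0 in every library of each group, but reached 306 TPM in 1 K36M 2C embryo. The part of these other markers in the results was not tested. H3f3b, the gene carrying the K36M allele, was at 265 to 308 TPM in control and 377 to 418 TPM in K36M FGOs, and gene-level TPM cannot separate the mutant allele from the normal one.

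**Figure D1:**
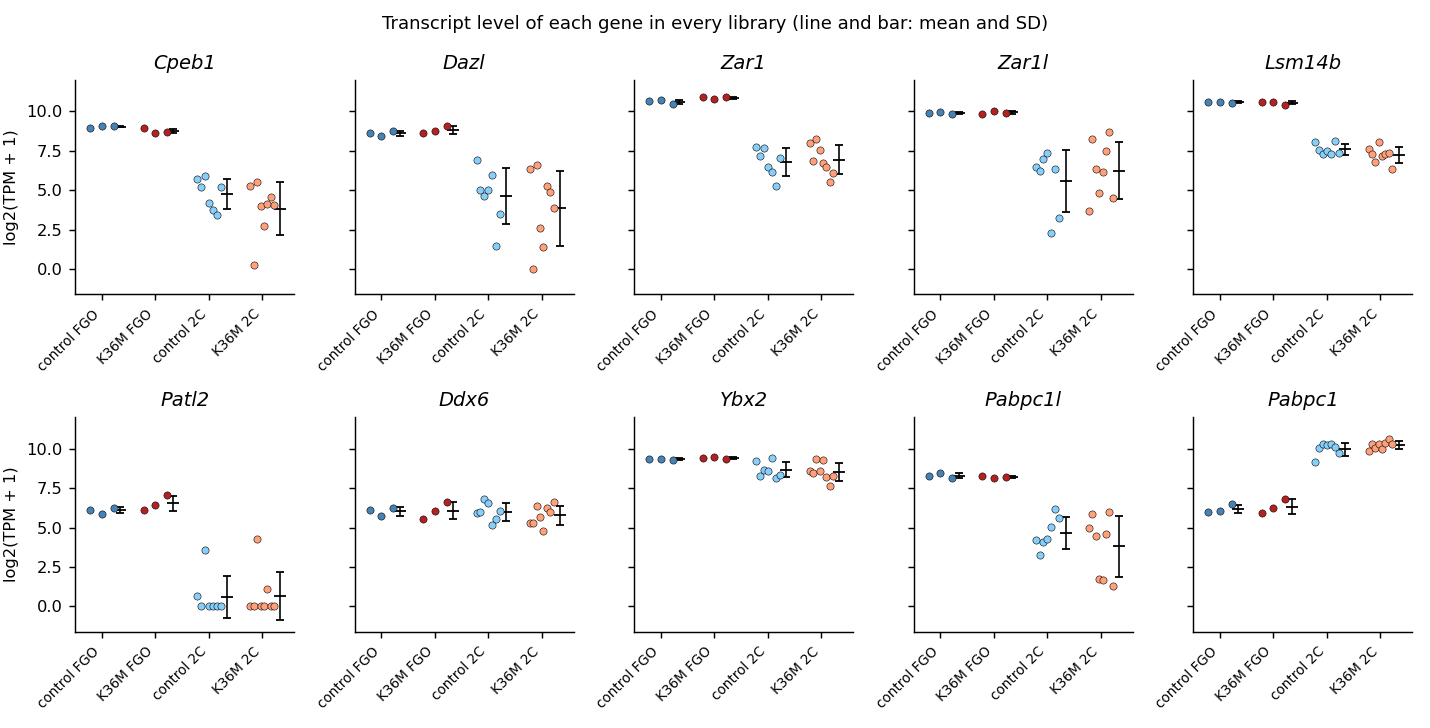
Level of each of the 10 transcripts, as log2(TPM + 1), in every library of the 4 groups; points are libraries, the line and bar are the mean and SD. The FGO points lie close together in controls and, for most transcripts, in K36M, where Ddx6, Patl2 and Pabpc1 are spread more widely; 7 transcripts sit lower in every 2C embryo, and Pabpc1 sits higher in every 2C embryo.

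In control FGOs the group spanned a wide range of levels. Zar1 (1546 ± 124 TPM, SD, n = 3) and Lsm14b (1521 ± 56.1) were the most abundant and their ranges overlapped, and they ranked 45 and 48 among all genes of the table. They were followed by Zar1l (952 ± 23.8), Ybx2 (639 ± 27.9) and Cpeb1 (522 ± 19.4), each separated from its neighbours without overlap of libraries. Dazl (389 ± 46.7) and Pabpc1l (311 ± 34.6) came next and overlapped with each other. Pabpc1 (72.1 ± 14.8), Patl2 (67.5 ± 8.85) and Ddx6 (65.2 ± 12.4) were lowest and could not be ordered beyond their spread. The 10 transcripts together made up 0.609% of all TPM in control FGOs and 0.640% in K36M FGOs, and 0.203% and 0.218% in control and K36M 2C embryos.

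The change from oocyte to 2C embryo was then examined in controls, fitting limma to log2(TPM + 1) of all 21 libraries. Of the 10 transcripts, 7 fell (Patl2, Zar1l, Cpeb1, Dazl, Zar1, Pabpc1l and Lsm14b) and 1 rose (Pabpc1) at an adjusted p under 0.05, whereas Ybx2 and Ddx6 did not pass. Over all genes tested, 26.6% passed, 13.2% lower and 13.4% higher, so that 50.3% of all calls were higher, a share that became 38.6% when TPM were rescaled by median of ratios. The median log2 change was -3.71 for the 10 transcripts and 0.00 over all genes. The same 8 were those whose FGO and 2C libraries did not overlap, which held for 32.3% of all genes. The stage is tied to other differences between these libraries, since FGOs were pooled cells from the ovary and embryos were single, in vitro fertilized and in possession of a paternal genome, and these cannot be told apart.

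Among the proteins that select mRNAs for translation, Cpeb1 was at 500.5, 529 and 537 TPM in the control FGOs and at 51.0, 36, 58.9, 17.6, 12.2, 9.98 and 35.1 TPM in the control 2C embryos. The highest embryo was far below the lowest oocyte library. The log2 fold change, fitted to log2(TPM + 1), was -4.26 (SE 0.78, adjusted p = 0.000230, limma), while the ratio of the arithmetic mean TPM was 16.6-fold. Dazl, which binds U-rich sites and promotes translation in maturing oocytes, was at 391, 341 and 435 TPM in control FGOs and at 119, 30.8, 23.6, 30.7, 61.0, 1.71 and 10.5 TPM in control 2C embryos. Its embryos were widely spread, yet all lay below the oocytes. The log2 fold change was -3.97 (SE 1.13, adjusted p = 0.0110, limma).

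The zygote arrest genes Zar1 and Zar1l, named for the stage at which embryos of mothers lacking ZAR1 stop, encode zinc-finger proteins that bind stored mRNAs. Zar1 was at 1578, 1651 and 1409.8 TPM in control FGOs and at 216, 140.0, 207, 87.8, 71.7, 38.0 and 133 TPM in control 2C embryos. The groups stood apart in every library, and the log2 fold change was -3.79 (SE 0.50, adjusted p = 3.25e-06, limma). Zar1l was at 955, 974 and 927 TPM in control FGOs and at 88.9, 74.5, 128, 164, 3.87, 78.5 and 8.58 TPM in control 2C embryos. Here 2 of the 7 embryos were much lower than the others, and the log2 fold change of -4.33 had a larger error (SE 0.99, adjusted p = 0.00204, limma).

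Among the proteins of repressed particles, Lsm14b, a partner of DDX6 in the oocyte, was at 1533, 1571 and 1461 TPM in control FGOs and at 269, 185, 156, 175, 155, 275 and 162 TPM in control 2C embryos. It was the steadiest of the transcripts that fell, with a coefficient of variation of 26.7% over the embryos and a log2 fold change of -2.98 (SE 0.28, adjusted p = 2.17e-08, limma). Patl2, an oocyte form of the decapping activator PATL1, was at 69.2, 57.9 and 75.3 TPM in control FGOs. In control 2C embryos it was listed at 0 in 5 of 7, at 0.617 TPM in replicate 1 and at 11.1 TPM in replicate 3. The log2 fold change of -5.48 (SE 0.90, adjusted p = 6.90e-05, limma) depends on the pseudocount of 1 and ranged from -8.01 to -4.74 over the settings tried. Patl2 overlaps B2m and Trim69 in the annotation and the strand setting of the counting was not given in the sources used here, so its values are uncertain. In FGOs B2m was at 28.4 to 65.9 TPM and Trim69 at 0 to 0.0633 TPM. In K36M 2C replicate 6, one of the 2 K36M embryos with a Patl2 value above 0 (1.19 TPM), Trim69 was at 13.0 TPM, its highest of all libraries, and in control 2C replicate 3, the embryo with the highest Patl2 of those 7, B2m was at 144 TPM, its highest. In K36M 2C replicate 3, the K36M embryo with the highest Patl2 (18 TPM), B2m was at 1.12 TPM and Trim69 at 0 TPM.

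Ddx6, the RNA helicase at the core of these particles, was at 69.2, 51.3 and 75.2 TPM in control FGOs and at 60.2, 61.7, 109.9, 91.9, 34.2, 46.2 and 63.9 TPM in control 2C embryos. The embryos lay on both sides of the oocytes, and the log2 fold change was -0.04 with a 95% interval from -0.94 to 0.86 (adjusted p = 0.972, limma). Ybx2, the major mRNA-packaging Y-box protein of germ cells, was at 662, 646 and 608 TPM in control FGOs and at 593, 304, 402, 387, 669, 278 and 328 TPM in control 2C embryos. In 6 of the 7 embryos it was below every oocyte library, and in 1 it was above them. The log2 fold change was -0.66 (SE 0.30, adjusted p = 0.110, limma), with a 95% interval from -1.29 to -0.04. Ybx2 passed when TPM were rescaled by median of ratios (log2 fold change -0.98, adjusted p = 0.0166), with array weights (-0.76, adjusted p = 0.000258) and without control 2C replicate 6 (-0.79, adjusted p = 0.0486).

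The poly(A)-binding proteins moved in opposite directions. Pabpc1l was at 304, 349 and 281 TPM in control FGOs and at 17.7, 8.52, 15.8, 18.7, 31.5, 71.4 and 46.7 TPM in control 2C embryos. All embryos were below all oocytes, with a log2 fold change of -3.62 (SE 0.87, adjusted p = 0.00311, limma). Pabpc1 was at 63.2, 63.8 and 89.2 TPM in control FGOs and at 565, 1049, 1239, 1208, 1239, 1114 and 851 TPM in control 2C embryos. The lowest embryo was well above the highest oocyte library, the ratio of the arithmetic mean TPM was 14.4-fold, and the log2 fold change was 3.80 (SE 0.24, adjusted p = 1.89e-11, limma). In control 2C embryos Pabpc1 (1038 ± 249.9 TPM, n = 7) had thus the highest mean of the 10 transcripts, and Ybx2 (423 ± 150.3) the second, their ranges overlapping.

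**Figure D2:**
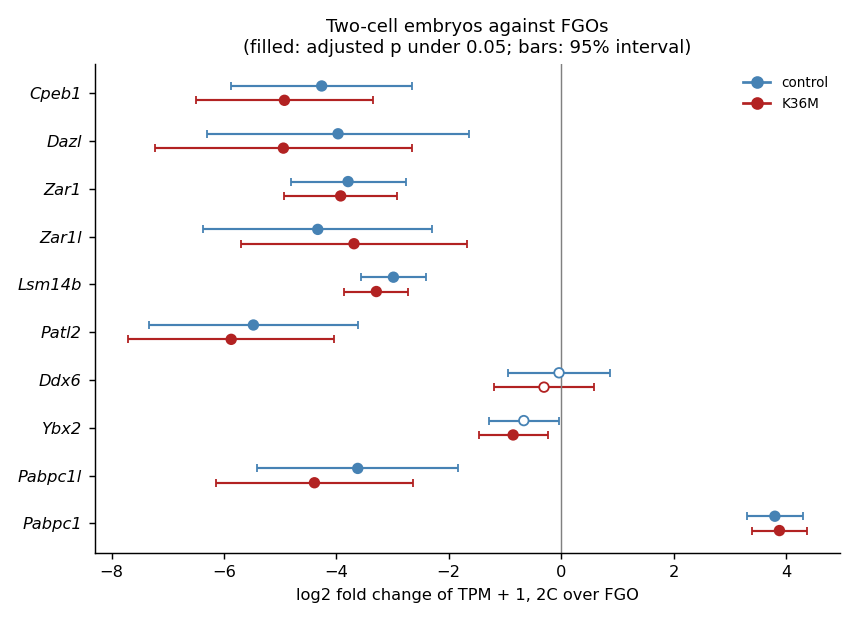
Log2 fold change of TPM + 1 from FGOs to 2C embryos for each transcript, in controls (blue, 3 against 7 libraries) and in K36M (red, 3 against 8); bars are 95% intervals and filled points have an adjusted p under 0.05. Pabpc1 is the sole gene right of 0 (3.80 and 3.88), Ddx6 lies near 0, and Ybx2 is filled in K36M alone.

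The same change was measured in K36M oocytes and the embryos derived from them. Here 9 of the 10 transcripts passed, 8 lower and 1 higher, against 29.3% of all genes, 18.6% lower and 10.8% higher. As in controls, 8 did not overlap between stages, beside 26.2% of all genes. The median log2 change was -3.80 for the 10 and -0.18 for all genes. Patl2 (log2 fold change -5.87, SE 0.89), Dazl (-4.94, SE 1.11), Cpeb1 (-4.92, SE 0.76) and Pabpc1l (-4.39, SE 0.85) fell most, and Pabpc1 rose by 3.88 (SE 0.23). Zar1 (-3.92), Zar1l (-3.69) and Lsm14b (-3.29) fell as well. Ybx2 was at 668, 698 and 655 TPM in K36M FGOs and at 378, 349, 658, 384, 623, 291, 196 and 309 TPM in K36M 2C embryos, a log2 fold change of -0.85 (SE 0.30, adjusted p = 0.0327, limma). Only 1 of the 8 embryos reached the range of the oocytes. This call was not held in 8 of the settings tried, among them the fit without K36M FGO replicate 1 (adjusted p = 0.0961), 2 (0.109) or 3 (0.0905) and that without K36M 2C replicate 6 (0.0509) or 7 (0.0508). Ddx6 again did not pass (-0.31, 95% interval from -1.19 to 0.58). Its change was -0.57 without K36M FGO replicate 1 and -0.022 without K36M FGO replicate 3.

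Whether the change between stages differed between genotypes was tested by the interaction term. None of the 10 transcripts passed (adjusted p = 0.9999 for each, limma), and 0 had an unadjusted p under 0.05, against 1.15% of all genes. Thus Ybx2, called in K36M and not in controls, was not shown to differ between them. Nor were the stage changes shown to be equal. The 95% interval of the interaction was narrowest for Pabpc1, from -0.61 to 0.77. It was widest for Dazl, from -4.23 to 2.29, and ran from -2.21 to 3.50 for Zar1l.

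The balance between oocyte forms and their paralogues was followed as a log2 ratio of TPM + 1 within each library. The ratio of Pabpc1l to Pabpc1 averaged 2.11 ± 0.41 (SD, n = 3) in control FGOs, ranging from 1.64 to 2.43, and -5.32 ± 1.06 (n = 7) in control 2C embryos, ranging from -6.79 to -3.94. Pabpc1l thus exceeded Pabpc1 in every FGO library and Pabpc1 exceeded Pabpc1l in every embryo (exact permutation test, two-sided, p = 0.0167, adjusted p = 0.0417 over 20 tests). Ybx2 to Ybx1, the Y-box protein of somatic cells, went from 0.56 ± 0.07 to -2.07 ± 0.78, with Ybx1 rising from 431 ± 12.5 to 1731 ± 393 TPM. Lsm14b to Lsm14a went from 1.94 ± 0.04 to -1.37 ± 0.44, while Lsm14a was at 395 ± 13.0 and 504.3 ± 102 TPM. Patl2 to Patl1 went from 0.97 ± 0.23 to -4.58 ± 1.78, but Patl2 was listed at 0 in 5 of the 7 control embryos, where this ratio is set by the pseudocount and the level of Patl1, and its values carry the doubt over overlapping genes given above. These ratios had the same p and adjusted p. With 3 against 7 libraries, 0.0167 is the smallest p of this two-sided test, which doubles the one-sided p. In each of these 4 pairs the sign turned in every library. With any one FGO library left out, 0 of the 20 tests passed the adjustment. Zar1l to Zar1, both oocyte genes, did not show such a turn, with -0.70 ± 0.08 in control FGOs and -1.24 ± 1.99 in control 2C embryos (exact permutation p = 0.683, adjusted p = 0.804), where single embryos ranged from -3.90 to 1.03.

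**Figure D3:**
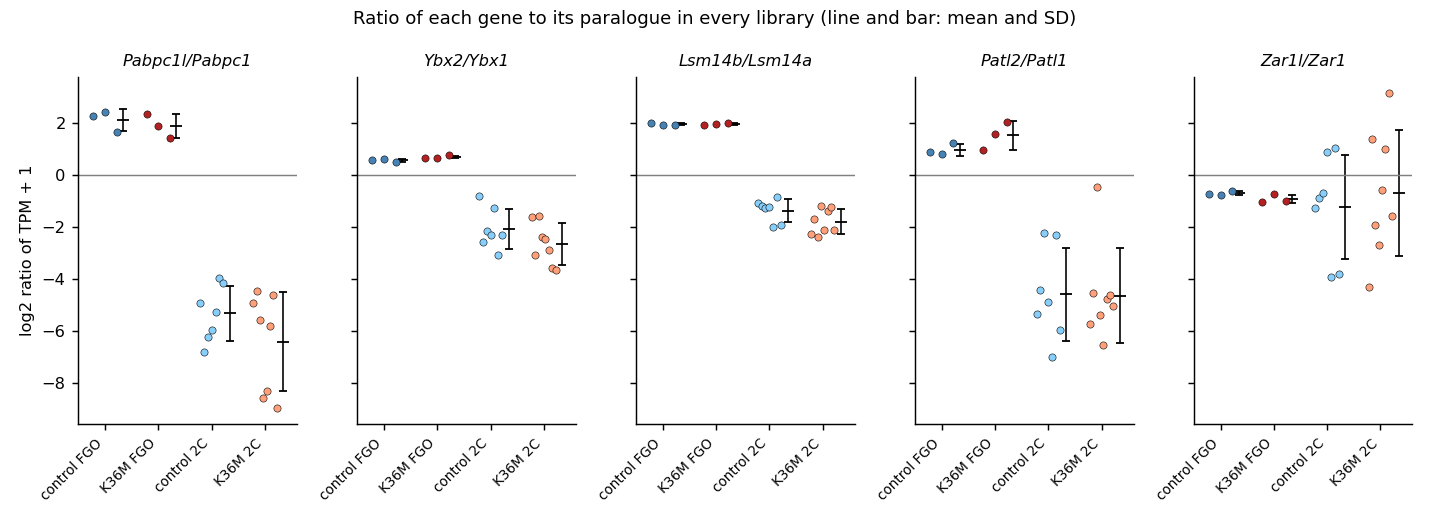
Log2 ratio of TPM + 1 of each gene to its paralogue in every library of the 4 groups; points are libraries, the line and bar are the mean and SD, and the grey line marks equal levels. Of the 5 pairs, 4 lie above the line in all FGOs and below it in all 2C embryos of both genotypes, while Zar1l/Zar1 scatters around it in embryos.

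In K36M the 4 ratios turned in the same way. Pabpc1l to Pabpc1 went from 1.88 ± 0.47 (n = 3) to -6.40 ± 1.89 (n = 8), Ybx2 to Ybx1 from 0.70 ± 0.05 to -2.65 ± 0.80, Lsm14b to Lsm14a from 1.96 ± 0.05 to -1.80 ± 0.48 and Patl2 to Patl1 from 1.52 ± 0.54 to -4.63 ± 1.82 (exact permutation p = 0.0121 for each, the smallest possible, adjusted p = 0.0417). These calls too were lost with any one FGO library left out, and Patl2 was listed at 0 in 6 of the 8 K36M embryos, where its ratio is set by the pseudocount and Patl1. None of the 5 ratios passed between genotypes at either stage. For FGOs this was fixed by the design, since 3 against 3 libraries cannot give a p below 0.1. Ybx2 to Ybx1 was the 1 ratio whose FGO libraries did not overlap, from 0.50 to 0.62 in controls and from 0.67 to 0.75 in K36M (exact permutation p = 0.1), beside 15.6% of all genes whose levels did not overlap between these libraries.

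Comparing K36M with control FGOs, none of the 10 transcripts passed (limma, adjusted p from 0.373 to 0.961), and 2 had an unadjusted p under 0.05. Over all genes 0.00726% passed and 10.5% had an unadjusted p under 0.05. Zar1 was at 1887, 1748 and 1912 TPM in K36M FGOs, each above the 3 controls, with a log2 fold change of 0.26 (SE 0.08, unadjusted p = 0.00735, adjusted p = 0.373, limma). Cpeb1 was at 482, 396 and 415 TPM in K36M FGOs, each below the 3 controls, with a log2 fold change of -0.28 (SE 0.09, unadjusted p = 0.0107, adjusted p = 0.392, limma). Without K36M FGO replicate 1 it passed, at -0.37 (adjusted p = 0.0455), in a fit in which 300 of all genes passed in place of 1, and over all settings its adjusted p ranged from 0.0455 to 0.712. These were the 2 transcripts whose groups did not overlap, which was so for 15.6% of all genes. The summed oocyte markers were likewise lower in each K36M FGO library than in each control. By mean, Bmp15, Zp1, Zp2, Zp3 and Gdf9 were lower, whereas Nobox (1073 TPM in K36M, 892 TPM in controls) and Figla were higher. The median of the summed granulosa cell markers was 197 TPM in K36M and 129 TPM in control FGOs. Among these, Nr5a2 differed most, at a mean of 118 TPM in K36M and 71.0 TPM in controls. Amh, Hsd17b1 and Kitl were also higher by mean, while Foxl2, Inha, Inhba, Fshr and Cyp19a1 were lower. The part of these markers in the differences of Zar1 and Cpeb1 was not tested.

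The other 8 overlapped between genotypes. Patl2 was at 69.5, 83.8 and 135 TPM in K36M FGOs (log2 fold change 0.45, 95% interval from -0.05 to 0.96). Over the settings tried this difference lay between 0.18 and 0.66. The highest K36M value of Patl2 came from replicate 3. That library was also the highest of the 3 for Dazl (537 TPM, beside 392 and 426), Pabpc1 (112.0 TPM, beside 59.4 and 75.4) and Ddx6 (99.0 TPM, beside 45.9 and 64.7), and the lowest for Lsm14b (1376 TPM, beside 1553 and 1511). Replicate 3 of the control FGOs was likewise the highest of its group for Patl2, Dazl, Pabpc1 and Ddx6 and the lowest for Lsm14b, in the values given above. The intervals were narrow for the abundant transcripts: from -0.19 to 0.11 for Lsm14b, from -0.12 to 0.18 for Zar1l and from -0.07 to 0.23 for Ybx2. They were wide for the low ones, from -0.54 to 0.63 for Ddx6 and from -0.36 to 0.67 for Pabpc1.

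**Figure D4:**
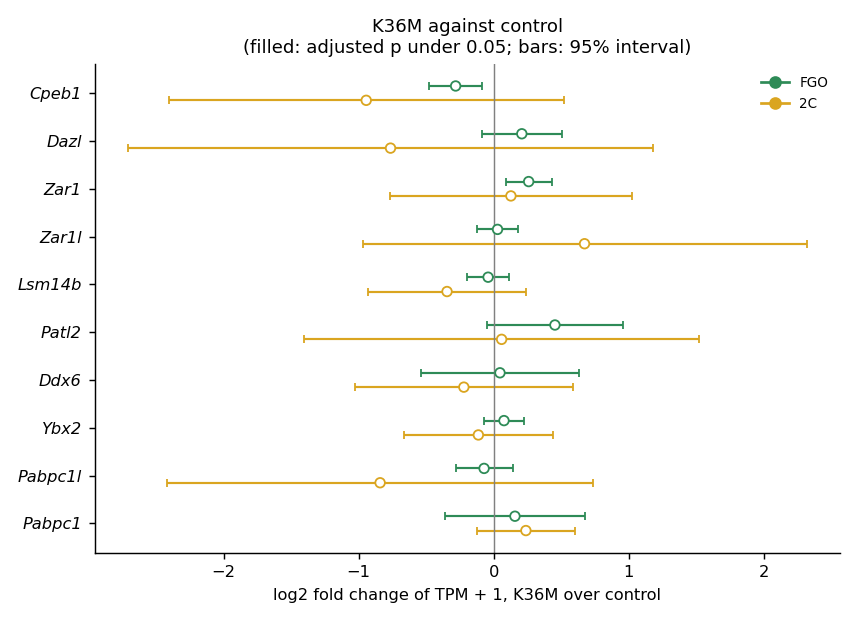
Log2 fold change of TPM + 1 of K36M over control for each transcript, in FGOs (green, 3 against 3 libraries) and in 2C embryos (yellow, 8 against 7); bars are 95% intervals and open points have an adjusted p of 0.05 or more. All points are open, the bars of Cpeb1 and Zar1 in FGOs leave out 0, and the 2C bars are much wider than the FGO bars for most genes.

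Between K36M and control 2C embryos, again none of the 10 transcripts passed (limma, adjusted p from 0.736 to 0.984), with 0 at an unadjusted p under 0.05 and 0 without overlap. Over all genes 0% passed, 7.71% had an unadjusted p under 0.05 and 0.115% did not overlap. The median log2 difference was -0.17 for the 10 and -0.26 for all genes. Cpeb1 was at 38.3, 0.193, 45.4, 15.1, 5.65, 16.3, 22.8 and 16.1 TPM in K36M 2C embryos, with replicate 2 far below the rest (log2 fold change -0.94, 95% interval from -2.41 to 0.52, and -0.43 without that embryo). Dazl was at 81.3, 0, 97.7, 4.96, 1.61, 37.5, 28.1 and 13.5 TPM, listed at 0 in the same replicate 2 (-0.76, from -2.71 to 1.18). The Dazl difference was -0.21 without that embryo, -1.30 without control 2C replicate 7 and -1.27 with control 2C replicate 4 added, and did not pass in any of these. Pabpc1l was at 30.3, 56.3, 20.7, 2.28, 2.23, 23.1, 62.6 and 1.51 TPM (-0.84, from -2.42 to 0.74). With single embryos left out its difference lay between -1.15 (without K36M 2C replicate 7) and -0.48 (without K36M 2C replicate 8). The K36M embryos held for Pabpc1l 3 values below the lowest control embryo, the others lying within the control range.

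Zar1l was at 11.7, 304, 79.9, 27.7, 68.8, 175, 416 and 21.9 TPM in K36M 2C embryos, with 3 of 8 above the highest control (log2 fold change 0.67, from -0.97 to 2.32, and between 0.13 without control 2C replicate 6 and 1.04 without K36M 2C replicate 1). Zar1 ranged from 45.9 to 305 TPM (median 109.5) and Lsm14b from 78.5 to 267 TPM (median 155). Patl2 was listed at 0 in 6 of 8 K36M embryos, at 1.19 TPM in replicate 6 and at 18 TPM in replicate 3. Ddx6 ranged from 26.8 to 95.5 TPM (median 55.9) and Pabpc1 from 937 to 1550.4 TPM (median 1243), with a log2 fold change of 0.24 for Pabpc1 (from -0.12 to 0.60). The Pabpc1 difference lay between 0.078 and 0.41 over the settings tried. The intervals reached beyond 1 log2 unit in at least one direction for 7 transcripts (Cpeb1, Dazl, Pabpc1l, Patl2, Zar1l, Zar1 and Ddx6), so a difference of that size lay within their intervals.

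The coefficient of variation was higher among embryos than among oocyte pools for 10 of the 10 transcripts in controls and for 9 of 10 in K36M, the exception being Pabpc1 (32.7% in K36M FGOs and 16.6% in K36M 2C embryos). For Ddx6 in K36M the values were close, at 38.5% and 41.4%. The coefficient of variation of Zar1l was 2.51% in control FGOs, 74.5% in control and 108% in K36M 2C embryos, and that of Cpeb1 was 3.71%, 60.6% and 76.6%. Among genes of at least 10 TPM, the median SD of log2 values was 0.13 in control FGOs, 0.94 in control 2C and 1.23 in K36M 2C embryos. In control 2C embryos 4 of the 9 transcripts of the group at this level exceeded that median, and likewise 4 of 9 in K36M 2C, so their spread was not set apart from that of other genes.

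Pairs of transcripts were compared across embryos of one genotype, 90 pairs in all, with exact permutation p-values adjusted over them. Cpeb1 and Dazl went together in the 8 K36M 2C embryos (Pearson's r = 0.92, p = 0.000198, adjusted p = 0.0179; Spearman's rho = 0.98, p = 0.000397, adjusted p = 0.0357; r = 0.90 without the 2 embryos farthest from the median of Cpeb1; exact permutation). In the 7 control 2C embryos the same pair had r = 0.43 (exact permutation p = 0.348, adjusted p = 0.825). Cpeb1 and Zar1 went together in the control 2C embryos (r = 0.97, p = 0.000595, adjusted p = 0.0268; rho = 0.96, p = 0.00278, adjusted p = 0.125; r = 0.98 without the 2 farthest; exact permutation). In the K36M 2C embryos that pair had r = 0.28 (exact permutation p = 0.530, adjusted p = 0.931; rho = 0.26). The difference between genotypes was not tested. Of the 90 pairs, 2 passed by Pearson's r and 1 by Spearman's rho, and the embryos of a group also differ in the number of genes detected, whose part was not tested.

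Across all 21 libraries the genes most like each transcript were found by Pearson's r of log2(TPM + 1) among 17358 genes, as a description in which the libraries share their stage. Pabpc1 was closest to Gabpa and Zfp622 (r = 0.99 for each), and no other transcript of the group correlated with it above 0 (highest r = -0.10, Ddx6). Lsm14b was closest to Ldhb and Tm9sf2 (r = 0.97 for each), Zar1 to Elovl5 and Aknad1 (0.97 for each) and Cpeb1 to Tsc22d1 and Tbx4 (0.95 for each). Within the group, Zar1 and Patl2 (r = 0.93) and Cpeb1 and Dazl (r = 0.91) were each other's nearest. Ddx6 was closest to Syt5 (0.82), and its nearest in the group was Cpeb1 (0.37).

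The partners of these proteins were taken from 4 lists of 50 symbols, 49 of which were in the table. In controls, 3 of the 14 tested genes of the cytoplasmic polyadenylation machinery fell and 2 rose from FGO to 2C, beside 13.2% and 13.4% of all genes, with a median log2 change of -0.33, beside 0.00 for all genes. The same shares of all genes stand beside the control counts of the other lists. Fip1l1, a subunit that brings poly(A) polymerase to the mRNA, fell from 708 ± 17.5 TPM (SD, n = 3) to 194 ± 33.2 TPM (n = 7), a log2 fold change of -1.88 (adjusted p = 4.12e-05, limma). The endonuclease Cpsf3 (-2.49) and the deadenylase Parn (-1.66) also fell. Cpeb4, a paralogue of Cpeb1, rose from 121 ± 4.32 to 209 ± 36.9 TPM (0.76, adjusted p = 0.0259, limma), as did the 3′ untranslated region binder Pum2 (1.08).

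Of the 12 tested genes of repressed particles, 5 fell and 2 rose in controls (median -0.31). Those that fell most were Dcp1a (log2 fold change -3.26) and Edc4 (-2.60), partners of the decapping enzyme, and Eif4e1b (-1.83), an oocyte cap-binding protein, while G3bp1 (2.14), a stress granule protein, and Ybx1 (1.97) rose. Dcp1a was at 915 ± 87.5 TPM in control FGOs and 101 ± 45.4 TPM in control 2C embryos (adjusted p = 1.15e-07, limma). Of the 8 tested poly(A)-binding proteins and partners, 2 fell and 2 rose (median 0.10). Pabpn1l, the oocyte form of the nuclear poly(A)-binding protein, fell from 402 ± 23.1 TPM to between 0 and 9.19 TPM in the embryos (-7.34, adjusted p = 2.70e-05, limma), while Pabpn1 rose from 316 ± 4.09 to 1040.1 ± 269.9 TPM (1.68, adjusted p = 1.01e-06, limma). The oocyte form was thus lower and the general form higher in embryos, as measured for Pabpc1l and Pabpc1. Pabpc4 also rose (1.52) and the PABP inhibitor Paip2 fell (-1.78). Of 14 other RNA-binding regulators, 2 fell and 1 rose (median 0.02): Igf2bp2 (-3.00) and Fxr1 (-1.17) fell, and Igf2bp1, at 0.226 to 0.688 TPM in control FGOs, was at 31.0 to 57.2 TPM in control 2C embryos (4.88, adjusted p = 5.28e-07, limma).

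In K36M the counts from FGO to 2C were 3 lower and 1 higher of 14 for the polyadenylation machinery, 6 and 2 of 12 for repressed particles, 3 and 2 of 8 for poly(A)-binding proteins and 3 and 2 of 14 for the other regulators, beside 18.6% lower and 10.8% higher of all genes. None of the genes of the 4 lists passed between genotypes in FGOs or in 2C embryos, or for the interaction (limma). At an unadjusted p under 0.05 there were 1 of 14, 1 of 12, 2 of 6 and 2 of 12 genes tested in FGOs, in the order of the lists above, beside 10.5% of all genes. In 2C embryos there were 0 of 14, 2 of 12, 1 of 8 and 2 of 14, beside 7.71% of all genes. With so few genes a list, these counts are not read as apart from the background.

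**Figure D5:**
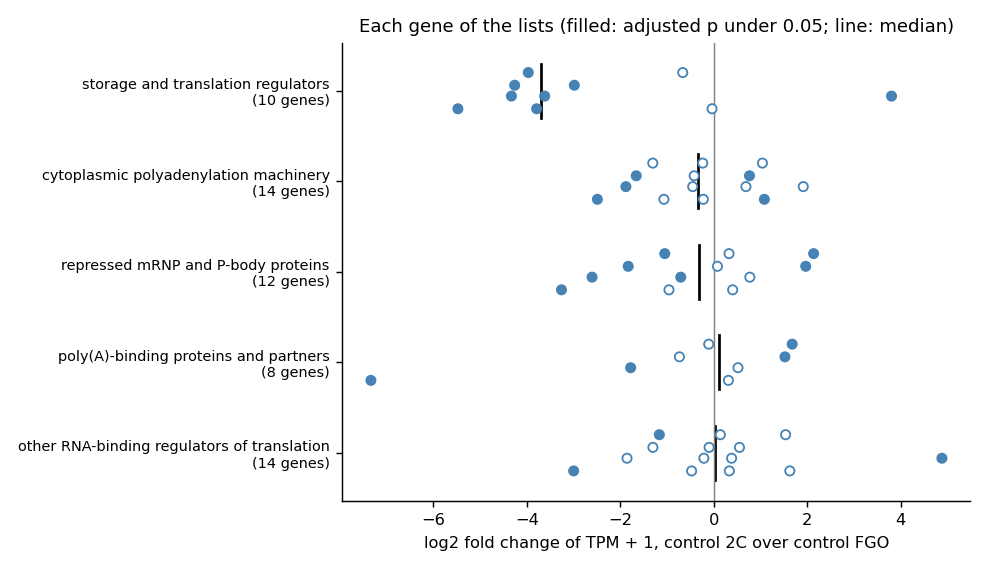
Log2 fold change of TPM + 1 from control FGOs to control 2C embryos for the 10 genes described and the tested genes of the 4 lists; each point is a gene, filled where the adjusted p is under 0.05, and the black line is the median. The median is -3.71 for the 10 genes and between -0.33 and 0.10 for the lists.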

How the data were processed

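RNA-seq libraries were made with a SMART-Seq stranded kit from pools of 5 FGOs or from single late 2C embryos. The authors trimmed 3 bases from the start of Read 2 (Trim Galore), aligned the reads to mm10 (Hisat2 2.2.0), discarded those on ribosomal RNA (BEDTools), counted per gene (featureCounts), and deposited TPM values of 22 libraries. The annotation, gene lengths and strand setting were not given in the sources used here. Groups followed the labels. The ChIP-seq, CUT&RUN and WGBS samples of the series were not used here.

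Here log2(TPM + 1) of genes with a mean of at least 1 TPM was fitted with limma 3.58.1 (eBayes with a trend, Benjamini-Hochberg, threshold 0.05) in R 4.3.3, separately for FGOs, for 2C embryos, and for all 21 libraries (stage contrasts and interaction). Fold changes are on this scale and understate the change of low genes. Ratios and embryo pairs used exact two-sided permutation tests (scipy 1.17.1). The labels name no separate females for the libraries of a group, so p-values measure the spread between these libraries. The script was tested on simulated data. All 10 genes were described, and of the 4 lists at most 3 called genes per direction with the largest change were named, besides the paralogues. The genes and lists were chosen with earlier results of these data known, and pairs of transcripts were compared after their levels were seen. Sequences and positions came from RefSeq (GRCm38.p6), where 26163 of 26214 symbols were found. Pabpc1 and Ddx6 had no promoter entry in the table used. Alternatives were another pseudocount (0.1), filter (above 0, or 5 TPM), scaling, variance model, library weights, a replicate block, and leaving out each library.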

Additional observations from a re-analysis of the deposited data

Results flagged for a closer look

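Among 2C embryos, 30 sets of values (10 transcripts and 5 ratios in 2 groups) were searched for a sample far from the others of its group by Dixon's test, of which chance passes about 1.5 where values vary freely, and 3 passed. All 3 concern Patl2, listed at 0 in 5 of the 7 control and 6 of the 8 K36M embryos, so that any embryo with a value stands out and that chance rate does not apply to them. Patl2 in control 2C replicate 3 (11.1 TPM) and in K36M 2C replicate 3 (18 TPM) stood far above the other embryos of their group, and so did the log2 ratio of Patl2 to Patl1 in K36M 2C replicate 3 (-0.45). In that K36M embryo B2m, which overlaps Patl2, was at 1.12 TPM, its lowest among the 8, whereas in control 2C replicate 3 it was at 144 TPM, its highest among the 7.

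Control 2C replicate 4, which the study left out, exceeded the other 7 control 2C embryos for Dazl (411 TPM, against at most 119), Ybx2 (1154 TPM, against at most 669), Patl2 (18.9 TPM, against at most 11.1) and Zar1 (328 TPM, against at most 216). It was below the other 7 for Lsm14b (88.9 TPM, against at least 155) and Pabpc1 (387 TPM, against at least 565), and within their range for the remaining 4 transcripts.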

How the results depend on the processing

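From FGO to 2C, 8 or 9 of the 10 transcripts passed in controls and in K36M under each alternative, and Ybx2 was the one that changed side. In FGOs 0 passed, or 1 without K36M FGO replicate 1, and in 2C embryos and for the interaction 0 passed under each alternative. Of the 20 ratio tests 8 passed, 7 with control 2C replicate 4 added, and 0 with any one FGO library left out, since the smallest p that genotype can give then rises and, with fewer tests at a low p, the 4 tests of the other genotype do not pass the adjustment either. Rescaling by median of ratios moved the median log2 change of all genes from 0.00 to -0.19 in controls and from -0.18 to -0.32 in K36M, and quantile normalization moved it from -0.26 to -0.01 between 2C groups. Over all genes, array weights raised the calls from 4615 to 9730 in controls and from 5094 to 8527 in K36M. Without K36M FGO replicate 1 there were 300 calls between FGO groups, and 0 to 2 without any other library, beside 1 with all libraries. Without control FGO replicate 1, 2 or 3 the calls between control stages fell from 4615 to 2844, 2872 and 2877, as fewer libraries entered the fit. Between 2C groups 0 to 5 genes and for the interaction 0 to 13 genes passed over the settings tried.

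Changes of sign occurred only in differences that had not passed, and the cause was not tested. With array weights the log2 difference was 0.16 for Ddx6 between control stages, -0.0040 for Pabpc1 in the interaction, and -0.032 for Patl2 and -0.012 for Zar1 between 2C groups. With control 2C replicate 4 added, Patl2 was at -0.40 and Zar1 at -0.067 between 2C groups. Quantile normalization gave 0.0066 for Lsm14b between FGO groups and -0.045 for Pabpc1 in the interaction, and median of ratios 0.019 for Zar1 in the interaction. With each library left out in turn, the FGO genotype differences ranged from -0.24 to 0.31 for Ddx6, -0.076 to 0.010 for Lsm14b, -0.086 to 0.37 for Pabpc1, -0.14 to 0.014 for Pabpc1l and -0.020 to 0.062 for Zar1l. The ratio differences ranged from -0.0043 to 0.040 for Lsm14b/Lsm14a and from -0.46 to 0.0072 for Pabpc1l/Pabpc1 between FGO groups. Between 2C groups they ranged from -0.043 to 0.56 for Patl2, -0.23 to 0.018 for Ybx2 and -0.12 to 0.32 for Zar1, and between control stages from -0.20 to 0.11 for Ddx6. For the interaction they ranged from -0.53 to 0.015 for Ddx6, -0.13 to 0.33 for Pabpc1, -0.91 to 0.10 for Patl2 and -0.38 to 0.065 for Zar1. Leaving out embryos was chosen after seeing the data.

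The replicate numbers of the labels were also used as a replicate block. Deviations of libraries with the same number correlated at 0.015 to 0.10 in FGOs and at -0.10 to 0.097 in 2C embryos. Of these libraries, 2 of 3 and 1 of 7 correlated best with their own number. Replicate 3 was the highest FGO library of both genotypes for Patl2, Dazl, Pabpc1 and Ddx6 and the lowest for Lsm14b. The labels do not say whether libraries with the same number were handled together, and 3 pairs of FGO libraries cannot decide it. The block left 8 of 10 transcripts called in each stage comparison, lost the call of Ybx2 in K36M (log2 fold change -0.71, adjusted p = 0.103) and put Ddx6 at 0.0045 in controls. TPM without depth limits what can be said of low transcripts such as Patl2 in embryos.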
